A study of Arabidopsis thaliana with 14 samples.

Results

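DNA methylation was compared between selfed embryos of 2 Arabidopsis thaliana strains, Col and Ler. The members were the 300-nt windows of the 5 nuclear chromosomes that both embryo libraries covered, with at least 15 cytosine calls in each library for CG and CHG, or at least 50 for CHH (H stands for A, C or T). Windows start every 200 nt, so neighbours overlap by 100 nt and share calls. Of the 595735 such windows of the reference, 459192 were members in CG, 477673 in CHG and 525164 in CHH. The Col x Col embryo came from a Col-0 female crossed to a Col-0 male and the Ler x Ler embryo from a Ler female crossed to a Ler male. Both were dissected 6 days after pollination from the pooled seeds of greenhouse-grown plants, and no treatment is named. Ler is the laboratory line Landsberg erecta, which carries a mutation in the receptor kinase gene ERECTA. The series holds 14 libraries, from embryo and endosperm of 7 crosses, and the embryos of Col and Ler were 2 of them. Each strain had 1 embryo library, so no level below has a replicate error, and every test on reads compares these 2 libraries and not the strains.

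Plants methylate cytosines in 3 sequence contexts by partly separate pathways. CG methylation is copied at replication by MET1 with the VIM proteins, and it marks both transposons and the bodies of many transcribed genes. CHG methylation is kept by CMT3 together with histone H3 lysine 9 methylation, and CHH methylation is placed by CMT2 in heterochromatin and by the small-RNA-directed pathway ending in DRM2. Methylation in all contexts together is typical of silenced transposons and repeats, whereas methylation of CG alone is typical of gene bodies. Losses and gains of CG methylation can be passed on for generations, and strains differ at many sites.

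A few windows with near-complete differences are shown first, with each CG site in capitals, because they show what a strain difference looks like at the level of sequence. All are TAIR10 reference sequence, taken from the RefSeq copy TAIR10.1 and read 5′ to 3′ on the top strand, so the Ler sequence itself may differ from them. The windows of SIP1A and AGL57, ABCG41, UMAMIT26 and AT2G14850 lie within 1 kb upstream of a gene and outside protein-coding genes. They were called in CG, CHG and CHH in the same direction and are the 2 in each direction with the largest CG difference among such windows. The windows of AT1G27570 and AT3G60920 lie in coding sequence at their midpoint. These genes had the most called windows toward Col and toward Ler, and the window shown is the called one outside UTRs with the largest CG difference in each.
SIP1A and AGL57, chr3:1074601-1074900, called higher in Col: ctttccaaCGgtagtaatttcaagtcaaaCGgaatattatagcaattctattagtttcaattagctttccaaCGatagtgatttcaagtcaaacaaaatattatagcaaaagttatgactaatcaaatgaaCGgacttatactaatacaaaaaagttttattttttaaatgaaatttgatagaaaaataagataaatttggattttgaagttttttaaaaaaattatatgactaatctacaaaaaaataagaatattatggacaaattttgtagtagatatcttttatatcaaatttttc
ABCG41, chr4:8670601-8670900, called higher in Col: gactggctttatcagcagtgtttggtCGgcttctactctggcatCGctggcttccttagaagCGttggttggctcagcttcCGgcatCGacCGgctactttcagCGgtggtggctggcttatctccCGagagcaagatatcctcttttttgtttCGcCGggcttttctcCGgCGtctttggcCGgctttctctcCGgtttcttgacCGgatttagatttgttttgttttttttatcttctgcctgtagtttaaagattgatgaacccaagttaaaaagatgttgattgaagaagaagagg
AT1G27570, chr1:9582201-9582500, called higher in Col: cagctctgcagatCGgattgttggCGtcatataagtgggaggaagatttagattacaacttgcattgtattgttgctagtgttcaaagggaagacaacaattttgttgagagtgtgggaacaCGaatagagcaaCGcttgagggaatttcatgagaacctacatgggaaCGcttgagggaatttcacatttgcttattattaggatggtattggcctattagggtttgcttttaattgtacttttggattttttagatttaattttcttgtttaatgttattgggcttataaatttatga
UMAMIT26, chr1:3856201-3856500, called higher in Ler: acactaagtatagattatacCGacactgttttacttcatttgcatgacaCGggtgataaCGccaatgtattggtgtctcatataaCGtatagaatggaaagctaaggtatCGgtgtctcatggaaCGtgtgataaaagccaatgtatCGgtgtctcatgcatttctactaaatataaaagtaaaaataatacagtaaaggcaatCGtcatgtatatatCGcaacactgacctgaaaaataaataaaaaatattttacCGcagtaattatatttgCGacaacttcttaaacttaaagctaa
AT2G14850, chr2:6385201-6385500, called higher in Ler: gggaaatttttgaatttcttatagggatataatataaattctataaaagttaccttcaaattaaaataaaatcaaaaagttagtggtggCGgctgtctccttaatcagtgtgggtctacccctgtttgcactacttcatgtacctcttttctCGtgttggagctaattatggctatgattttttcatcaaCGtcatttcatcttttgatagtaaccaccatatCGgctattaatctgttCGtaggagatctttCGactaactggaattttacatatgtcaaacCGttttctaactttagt
AT3G60920, chr3:22512401-22512700, called higher in Ler: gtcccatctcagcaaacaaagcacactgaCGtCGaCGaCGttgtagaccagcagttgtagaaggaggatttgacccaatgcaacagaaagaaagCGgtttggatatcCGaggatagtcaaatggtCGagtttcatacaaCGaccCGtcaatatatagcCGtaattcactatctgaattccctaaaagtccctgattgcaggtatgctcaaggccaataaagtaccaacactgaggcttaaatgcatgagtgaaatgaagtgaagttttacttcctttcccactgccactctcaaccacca

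The window between the divergent genes SIP1A, an aquaporin, and AGL57, a MADS-box gene, held 4 CG sites in AT-rich sequence. Every one of 55 CG calls was methylated in the Col embryo (Wilson 95% interval 93.5% to 100%), and 0 of 83 were in the Ler embryo, which allows up to 3.61%. The ABCG41 window held 15 CG sites. Each of its 131 CG calls in the Col embryo was methylated (97.2% to 100%) and 0 of 164 in the Ler embryo, which allows up to 1.83%. The UMAMIT26 window, upstream of a gene of an amino acid transporter family, went the other way. It had 0 of 145 CG calls methylated in the Col embryo, which allows up to 2.07%, and 85 of 87 in the Ler embryo (92.0% to 99.4%). The AT2G14850 window had 1 of 72 CG calls methylated in the Col embryo (0.246% to 7.46%) and 113 of 115 in the Ler embryo (93.9% to 99.5%). These intervals cover counting error only, and calls from 1 read are not independent.

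In the AT1G27570 window, 23 of 23 CG calls were methylated in the Col embryo (85.7% to 100%) and 0 of 177 in the Ler embryo, which allows up to 1.69%. Depth was very unequal in this window, whereas the ratio of Col to Ler calls had a median of 1.09 over the CG windows tested. The cause of that imbalance was not tested. In the AT3G60920 window, 0 of 42 CG calls were methylated in the Col embryo, which allows up to 7.14%, and 28 of 30 were in the Ler embryo (78.7% to 98.2%). The upstream windows also carried CHH methylation in the methylated strain, at 27.4% in Col against 0.866% in Ler at SIP1A and AGL57, and 0.235% in Col against 15.0% in Ler at UMAMIT26. The AT3G60920 window did not, at 0.413% in Col and 0% in Ler.

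Depth was similar but not equal. CG calls summed over nuclear windows were 41029294 in the Col embryo and 35149159 in the Ler embryo, and CHH calls were 241983156 and 178138590. Over the members the median window held 68 CG calls in Col and 63 in Ler, and 413 and 323 CHH calls. The Ler reads were placed on a Ler genome and moved to TAIR10 positions by the authors. The CG profiles of both libraries matched best without any shift in 886 of the 888 blocks of 100 kb that lie more than 3 Mb from a centromere. The exceptions were chr3:22500001-22600000, where a shift of -26.8 kb matched better, and chr4:17700001-17800000, where a shift of 43.8 kb did. Within 3 Mb of a centromere 237 of 280 blocks matched best without a shift and 43 with one. Windows in blocks with a better match at a shift may not hold the same sequence in both strains. The genes, runs and bins named for their windows were looked up, and those in such blocks are named as such below. The printed AT3G60920 window lies in the chromosome 3 block.

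Over windows found in both, the mean levels of the 2 embryos were close, but many single windows differed by most of their methylation. Mean CG methylation over the members was 23.9% in Col and 23.3% in Ler. Mean CHG methylation was 8.75% in Col and 8.30% in Ler, and mean CHH methylation was 2.64% in Col and 2.11% in Ler. Over every nuclear call of each library, windows found in a single strain included, the levels lay further apart. They were 29.0% in Col and 22.8% in Ler in CG, 13.0% and 8.003% in CHG, and 3.74% and 2.03% in CHH. A window was called different where the counts of methylated and unmethylated calls gave an adjusted p under 0.01 (Fisher's exact test, Benjamini-Hochberg) and where the levels lay at least 35 percentage points apart, or 10 points for CHH. In CG, 19352 windows were called higher in Col and 18420 higher in Ler, or 4.25% and 4.04% of the 455669 tested. In CHG, 3633 were called higher in Col and 2357 higher in Ler, or 0.764% and 0.496% of those tested. In CHH, 8665 were called higher in Col and 2970 higher in Ler, or 1.65% and 0.566%. CG calls were thus almost even between the strains, CHG calls leaned towards Col, and CHH calls did so most.

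At called CG windows the lower strain was often near 0, while the higher strain was often only partly methylated. At windows called higher in Col the median level was 75.9% in Col and 1.54% in Ler, and at windows called higher in Ler it was 0.833% in Col and 70.6% in Ler. The lower strain had exactly 0 methylated calls in 45.7% of the windows called higher in Col and in 49.0% of those called higher in Ler. The higher strain reached at least 80% in 45.1% of the windows called higher in Col and in 37.6% of those called higher in Ler. In gene bodies it did so in 36.5% and 32.2%. The median difference was 54.8 points for windows called higher in Col and 53.3 points for those called higher in Ler. In CHG the lower strain was also often near 0, with a median of 60.8% in Col and 0% in Ler at windows called higher in Col. In CHH the median of the lower strain was further above 0. Windows called higher in Col had a median CHH level of 21.5% in Col and 5.41% in Ler, and windows called higher in Ler had 8.20% in Col and 25.5% in Ler.

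Where the strains differed depended on the kind of sequence. Gene bodies, meaning windows that overlap a protein-coding gene, had a mean CG level of 16.8% in Col and 17.0% in Ler. The difference of -0.164 points ranged from -0.784 to 0.209 over the 5 chromosomes, so its sign was not the same on all of them, and with at least 30 calls in both libraries it was 0.00315. Outside annotated genes the mean was 27.9% in Col and 26.1% in Ler, a difference of 1.82 points (1.34 to 2.35 over chromosomes). Pseudogenes, a class that in this annotation holds many transposon-derived genes, had a mean of 80.01% in Col and 77.4% in Ler, a difference of 2.63 points (2.35 to 3.17). In gene bodies 14174 CG windows were called higher in Col and 15339 higher in Ler, or 4.77% (Wilson 95% interval 4.70% to 4.85%) and 5.17% (5.09% to 5.25%) of those tested. Outside genes 4006 were called higher in Col and 2201 higher in Ler, or 3.34% (3.24% to 3.44%) and 1.84% (1.76% to 1.91%). Because windows overlap, these intervals are too narrow. Gene bodies held 73.2% of the CG windows called higher in Col and 83.3% of those called higher in Ler, against 65.2% of all windows tested.

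In the other contexts the mean was higher in Col in every class. Outside genes the mean CHG level was 15.0% in Col and 13.9% in Ler, a difference of 1.08 points (0.855 to 1.30 over chromosomes). Outside genes the mean CHH level was 4.82% in Col and 3.94% in Ler, a difference of 0.888 points (0.762 to 1.07). In pseudogenes the mean CHH level was 11.9% in Col and 9.48% in Ler, a difference of 2.38 points (1.72 to 2.71). In gene bodies CHH was near its floor, at 0.732% in Col and 0.563% in Ler. Over 94870 windows with no methylated CG or CHG call in either library, mean CHH was still 0.390% in Col and 0.299% in Ler. The chloroplast windows of the Ler library, a genome generally regarded as unmethylated, stood at 0.150% in CHH, and those of Col were not analysed here. The level in otherwise unmethylated windows thus moved in the same direction as the gene body difference, and its part in that difference was not tested.

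Only 15.9% of the CHH windows called higher in Col and 15.7% of those called higher in Ler lay in gene bodies, against 63.9% of all windows tested. Windows outside genes made up 58.6% of the CHH calls higher in Col and 64.9% of those higher in Ler. Depth moved with these calls. The ratio of Col to Ler calls had a median of 1.90 at CHH windows called higher in Col and 1.80 at those called higher in Ler, against 1.23 over the windows tested. The ratio was thus raised in both directions. Without windows whose ratio was over 3-fold from the median, 6912 were called higher in Col and 2257 higher in Ler. A small set of 293 windows called higher in Ler had at least 60% CHH methylation in Ler, of which 282 lay outside gene bodies. Their mean CHH level was 31.0% in Col and 75.0% in Ler, and in the hybrids it was 39.8% in Col x Cvi and 46.1% in Ler x Cvi (261 windows). For the opposite direction there were 37 such windows.

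Within genes, the differences followed the place where genes are methylated. Across 23067 protein-coding genes of at least 1 kb, mean CG methylation was 2.77% in Col and 2.52% in Ler in the first 10% of gene length, and highest between 60% and 70% of gene length, at 28.8% in Col and 29.6% in Ler. The share of called windows was also low at the start and high in the later part of genes. A call needed a gap of at least 35 points, so windows with little methylation in both strains could not be called. The call rule alone thus ties the share to the level. In the first 10% of gene length 0.763% of windows were called higher in Col and 0.567% higher in Ler, and between 60% and 70% of gene length 7.45% and 8.86% were. For Col the share was highest between 50% and 60%, at 7.57%. The 800 to 1000 nt upstream of the start had 3.16% called higher in Col and 1.98% higher in Ler. The strain with more calls therefore changed between the flanks and the body. By annotated part, introns had 5.87% of windows called higher in Col and 7.13% higher in Ler, and coding sequence 5.80% and 6.04%. The 5′ UTRs had 0.598% called higher in Col and 0.475% higher in Ler, and the 3′ UTRs 2.27% and 2.31%.

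**Figure D1:**
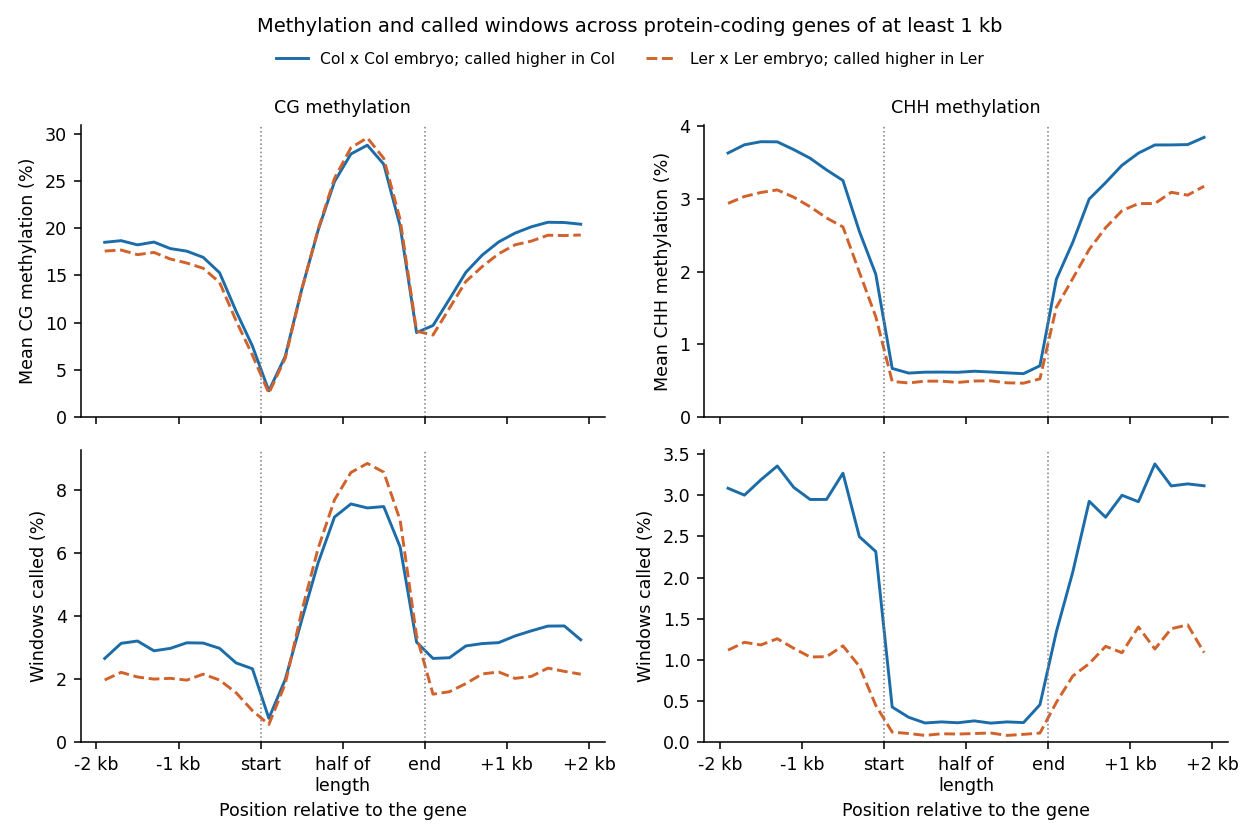
Mean methylation (upper plots, percent) and share of windows called different (lower plots, percent of windows tested) across protein-coding genes of at least 1 kb, with up to 2 kb of flanking sequence, of which only windows outside protein-coding genes were used. The left plots give CG and the right plots CHH. Solid lines are the Col embryo or windows called higher in Col, and dashed lines the Ler embryo or windows called higher in Ler. Calls toward Col in CG are most frequent at 50% to 60% of gene length, with 7.57% of windows. Those toward Ler are most frequent at 60% to 70%, with 8.86%. CHH calls are more frequent in the flanks than within genes.

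Of 26860 protein-coding genes with a CG window tested, 7475 (27.8%) had at least 1 CG window called higher in Col and 7048 (26.2%) at least 1 called higher in Ler. Both kinds occurred in 3313 genes (12.3%), whose bodies thus held windows higher in Col beside windows higher in Ler. Whole-gene differences were rare. Among 24001 genes with at least 5 windows, the mean CG level was at least 20 points higher in Col in 386 and at least 20 points higher in Ler in 290.

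The genes with the most called windows were of both kinds. AT1G27570, a phosphatidylinositol kinase family gene on chromosome 1, had 25 of 29 CG windows called higher in Col. Its mean CG level was 93.6% in Col and 23.9% in Ler, with CHG at 80.1% in Col and 0.395% in Ler and CHH at 19.7% and 0.352%. The myosin gene XIF had 18 of 47 windows called higher in Col and 2 called higher in Ler, with CG at 37.4% in Col and 21.4% in Ler and CHG at 0.921% and 1.08%. ABCC1, which encodes a vacuolar ABC transporter, had 15 of 51 windows called higher in Col, with CG at 34.8% in Col and 15.7% in Ler. ABCC13, another ABC transporter gene, had 14 of 36 windows called higher in Col and 5 higher in Ler. It carried 44.5% CHG methylation in Col against 0.975% in Ler, and lies in a block near the centromere of chromosome 2 in which the profiles matched better with a shift. DMT2, a DNA methyltransferase gene related to MET1, had 13 of 23 windows called higher in Col, with CG at 63.7% in Col and 21.8% in Ler, CHG at 51.0% and 4.73% and CHH at 9.76% and 0.694%. FAB1B, which encodes a phosphoinositide kinase, had 13 of 35 called higher in Col. AT1G27570, ABCC13 and DMT2 thus differed in CG and CHG together, and XIF, ABCC1 and FAB1B in CG alone.

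Most of the genes with the largest number of windows called higher in Ler were long genes methylated in both strains. The midasin-like gene AT1G67120, whose product acts in ribosome assembly, had 21 of 121 windows called higher in Ler and 5 higher in Col, at a mean CG level of 52.8% in Col and 62.2% in Ler. ATM, the kinase of the DNA damage response, had 19 of 118 called higher in Ler and 12 higher in Col, at 48.6% in Col and 55.2% in Ler. AT4G17140 had 18 of 97 called higher in Ler and 12 higher in Col, and AT1G48090 had 17 of 113 and 6. The remaining genes of this set, AT3G60920 and ABCC15, lie within the chromosome 3 block in which the profiles matched better with a shift. AT3G60920 had 22 of 46 windows called higher in Ler, with CG at 5.76% in Col and 38.6% in Ler and no CHG difference. ABCC15 had 20 of 20 called higher in Ler, with CG at 4.55% in Col and 94.5% in Ler, CHG at 0.184% and 78.8% and CHH at 0.306% and 14.9%.

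Along the chromosomes, the direction of the CG difference changed with distance from the centromere. Within 0.5 Mb of the centromere position the mean CG level was 80.7% in Col and 77.6% in Ler, a difference of 3.17 points (2.54 to 5.66 over chromosomes). Between 2 and 3 Mb the difference was 2.02 points (0.485 to 3.40), at 39.6% in Col and 37.6% in Ler. Beyond 8 Mb it was -0.381 points (-0.599 to -0.181), at 12.5% in Col and 12.9% in Ler. In gene bodies it was 3.32 points within 0.5 Mb (-0.106 to 6.28 over chromosomes) and -0.678 points beyond 8 Mb (-0.919 to -0.429). Outside genes Col was higher at every distance, by 4.29 points within 0.5 Mb and by 0.571 points beyond 8 Mb. At 2 to 3 Mb 6.24% of CG windows were called higher in Col and 4.53% higher in Ler. Beyond 8 Mb 3.44% were called higher in Col and 4.10% higher in Ler. CHH calls higher in Col made up 4.67% of windows at 1 to 2 Mb and 0.600% beyond 8 Mb, and CHH calls higher in Ler 1.12% and 0.244%.

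**Figure D2:**
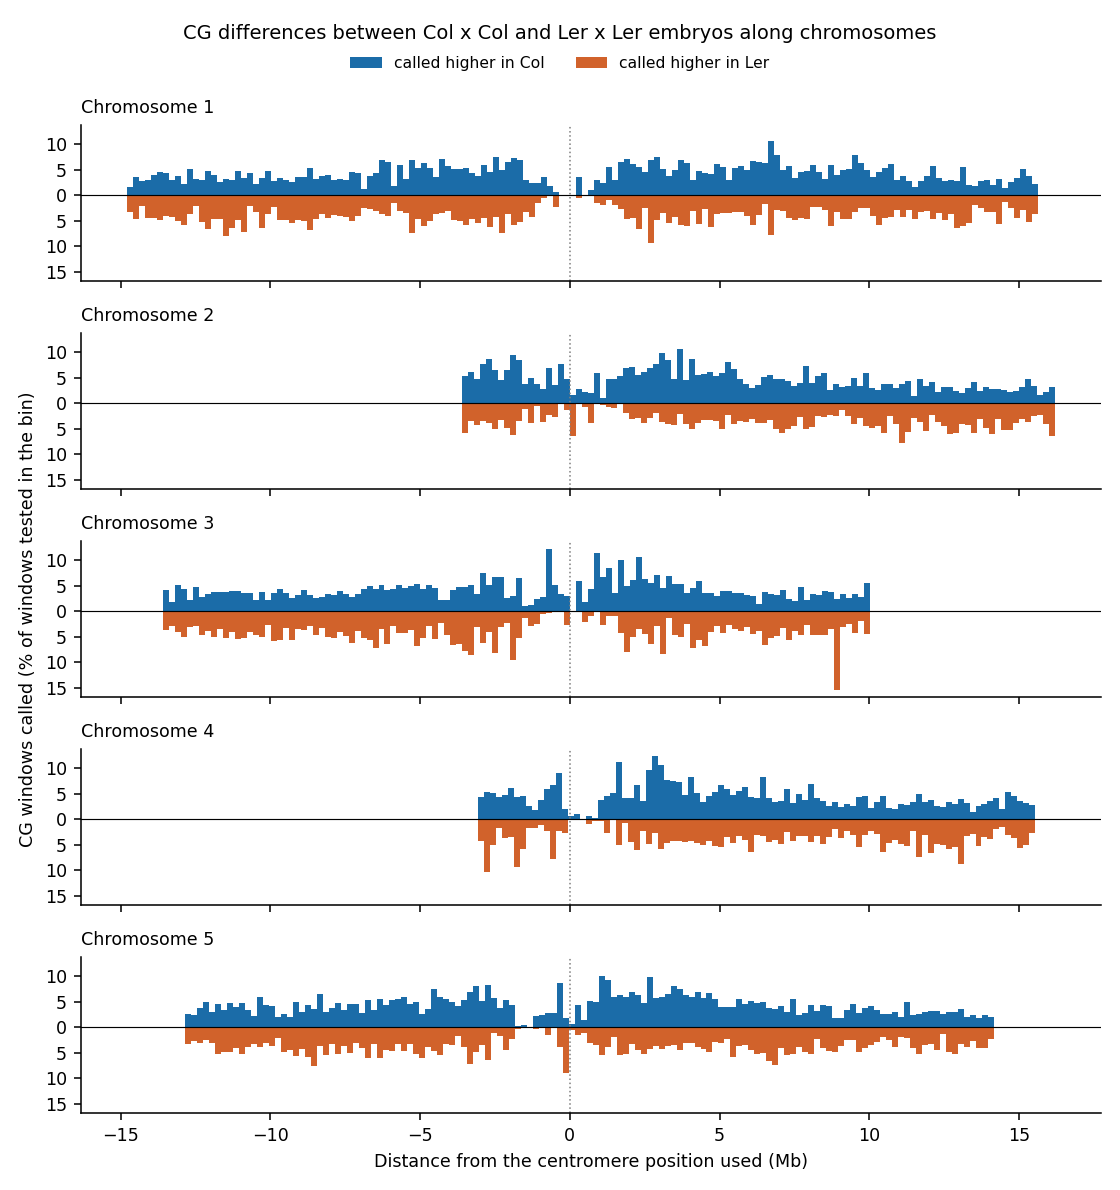
Percent of CG windows called higher in Col (bars upward) and higher in Ler (bars downward) in bins of 200 kb with at least 100 windows tested, by distance in Mb from the centromere position used (dotted line), for each chromosome. The longest downward bar, on chromosome 3, is the bin with 15.5% of windows called higher in Ler.

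In bins of 200 kb the median share of CG windows called was 4.09% for Col and 3.95% for Ler, over 592 bins with at least 100 windows tested. In 313 bins more windows were called higher in Col and in 264 more were called higher in Ler. For CHH the counts were 510 and 55 bins of 594. The bin with the widest gap was chr3:22400001-22600000, with 2.38% of windows called higher in Col and 15.5% higher in Ler, and mean CG levels of 8.37% in Col and 19.2% in Ler. Its right-hand 100 kb are the block with the better match at a shift. The next were chr3:12800001-13000000, with 12.2% called higher in Col and 0.420% higher in Ler, and chr3:14400001-14600000, with 11.5% and 0%. These 2 bins lie within 1 Mb of the centromere and had only 238 and 148 windows tested. Their CG level was 92.4% in Col and 80.1% in Ler in the first and 94.4% and 80.8% in the second, with CHG nearly equal at 53.2% and 51.9% in the first and 66.4% and 64.1% in the second. The first lies in 2 blocks that matched better with a shift. The second lies in 1 such block and 1 that had too few windows to be compared. Few windows of protein-coding genes were tested in these bins: AT3G31950 had 1 of 9 called higher in Col, and AT3G31550 0 of 4.

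The bin on the arm of chromosome 3 was examined in steps of 10 kb, and the steps given here all lie in that block, where the sequence compared may not be the same. The Col embryo had mean CG levels of 4.47% at chr3:22510001-22520000, 4.33% at chr3:22550001-22560000 and 2.99% at chr3:22560001-22570000. The Ler embryo had 71.2%, 31.2% and 31.6% in the same steps, so Ler was far above Col in each. CHG followed, at 0.572%, 0.241% and 0.547% in Col against 29.2%, 27.7% and 26.0% in Ler. CHH was 0.410%, 0.357% and 0.704% in Col against 4.27%, 4.85% and 4.87% in Ler. Beside AT3G60920 and ABCC15, AT3G60860, a SEC7-like exchange factor gene, had 9 of 35 CG windows called higher in Ler and 1 higher in Col. TTN1, needed for embryo development, had 8 of 31 called higher in Ler and 1 higher in Col. Both of these genes lie outside the 100-kb block with the better match at a shift. The Cvi x Cvi embryo, a library not used for the calls, had 73.0% CG methylation in the first of these steps (18 windows), near Ler, and 0.182% in the second (22 windows), near Col.

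**Figure D3:**
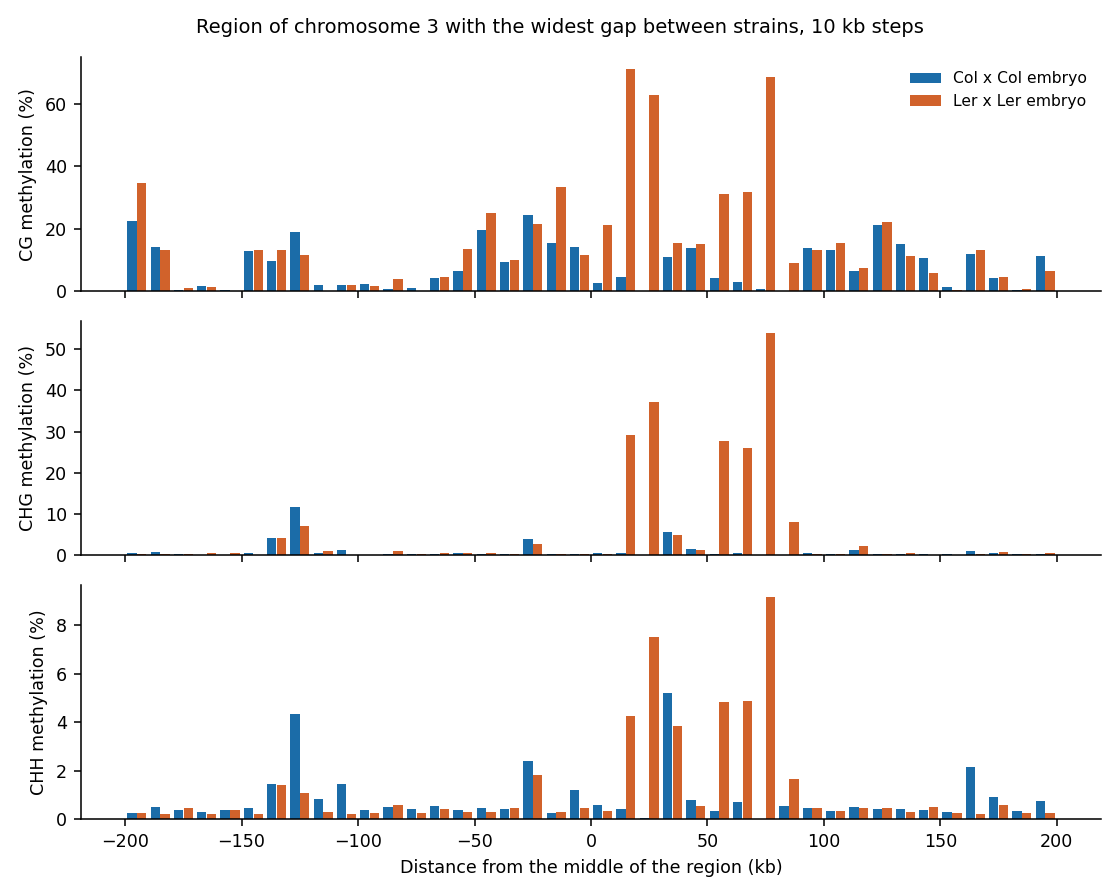
Mean CG, CHG and CHH methylation (percent) in steps of 10 kb over 400 kb of chromosome 3, plotted by distance in kb from the middle of the region, with the Col embryo to the left of the Ler embryo in each step. The 100-kb block in which the profiles matched better with a shift begins at the middle and runs to the right. In the step 15 kb right of the middle the Ler embryo reached 71.2% CG methylation where the Col embryo had 4.47%.

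The 3 contexts were then compared in the 415671 windows tested in all of them, of which 280602 lay in gene bodies. Of the 374745 called in no context, 67.0% lay in gene bodies. A CG difference alone was the usual form. It was found in 14880 windows higher in Col, of which 86.2% lay in gene bodies, and in 15796 higher in Ler, of which 91.3% did. CG and CHG differed together without CHH in 1214 windows higher in Col and 1112 higher in Ler. All 3 contexts differed in the same direction in 1082 windows higher in Col and 496 higher in Ler. Gene bodies held 29.1% of these windows higher in Col and 34.1% of those higher in Ler. CHH differed alone in 3670 windows higher in Col and 944 higher in Ler, of which 13.1% and 11.0% lay in gene bodies. CHG differed alone in 501 windows higher in Col and 262 higher in Ler. Opposite directions were rare: among the CG windows called higher in Col, 3 of 17806 were called higher in Ler in CHG, and among those called higher in Ler 1 of 17630 was called higher in Col.

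Of the CG windows called higher in Col, 13.1% were also called higher in Col in CHG (95% interval by Wilson, 12.6% to 13.6%), beside 0.742% among every window tested in both. Of those called higher in Ler, 9.27% were also called higher in Ler in CHG (8.85% to 9.71%), beside 0.473%. The share depended on the kind of sequence. In gene bodies it was 5.24% for Col (4.88% to 5.63%) and 3.55% for Ler (3.27% to 3.86%). Outside genes it was 35.6% for Col (33.9% to 37.3%) and 32.2% for Ler (30.04% to 34.3%). In pseudogenes it was 55.2% for Col (51.6% to 58.7%) and 73.3% for Ler (69.5% to 76.9%). Among every window tested in both contexts, the CHG shares were 0.312% for Col and 0.213% for Ler in gene bodies, 1.52% and 0.762% outside genes, and 2.07% and 1.77% in pseudogenes. For CHH the shares of called CG windows over all classes were 9.74% for Col (9.33% to 10.2%) and 3.80% for Ler (3.53% to 4.08%), beside 1.45% and 0.465% among every window tested in both. From the other side, 75.2% of the CHG windows called higher in Col and 82.4% of those called higher in Ler were also called in CG. A CHG difference thus usually came with a CG difference, and a CG difference in a gene body seldom came with CHG.

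**Figure D4:**
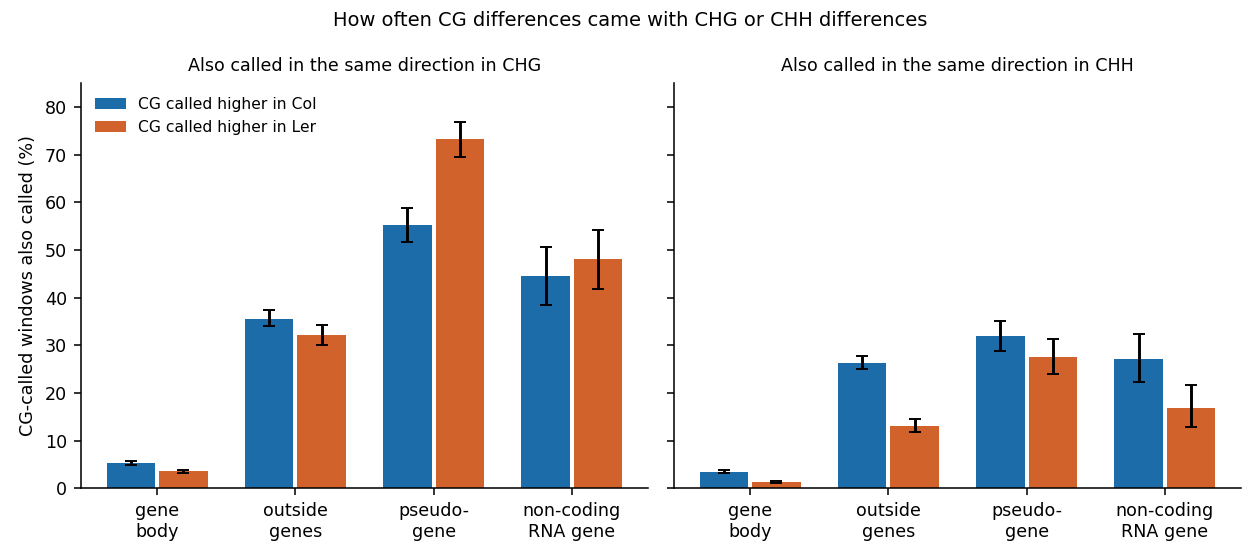
Percent of CG windows called higher in Col (left bar of each pair) or higher in Ler (right bar) that were also called in the same direction in CHG or CHH, by class of sequence. Error bars are Wilson 95% intervals and cover counting error only. In CHG the shares are 5.24% and 3.55% in gene bodies and 55.2% and 73.3% in pseudogenes.

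The size of the CG difference mattered too. In gene bodies where CG was 35 to 60 points higher in Col, CHG was 1.91% in Col and 0.706% in Ler (9569 windows). Where CG was 80 to 100 points higher in Col, CHG was 22.3% in Col and 0.573% in Ler, and CHH was 4.39% and 0.370% (1645 windows). Outside genes the same step of 80 to 100 points came with 41.8% CHG in Col and 1.51% in Ler (1334 windows). Where Ler was 80 to 100 points higher outside genes, CHG was 1.05% in Col and 40.1% in Ler (726 windows). As a description over windows that overlap and share libraries and depth, the CG and CHG differences had a Pearson r of 0.28 in gene bodies (280602 windows), 0.60 outside genes (99997) and 0.62 in pseudogenes (27215). The CHG and CHH differences had 0.54 in gene bodies and 0.45 outside genes.

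Runs of called CG windows were mostly short. Joined where they overlapped or touched, called windows formed 12899 runs higher in Col and 12155 higher in Ler, of which 66.1% and 65.5% were a single window. These lone windows made up 44.1% of the windows called higher in Col and 43.2% of those called higher in Ler. Only 10 runs higher in Col and 16 higher in Ler reached 2 kb. The longest was chr2:7224001-7229300, higher in Col, over the pseudogene AT2G16670. Over its 26 windows CG was 92.0% in Col and 1.83% in Ler, CHG 67.0% and 0.618%, and CHH 19.0% and 0.264%. Next was chr2:1664401-1668500 over the pseudogene AT2G04760, with CG at 94.7% in Col and 4.22% in Ler. The third, chr4:17712401-17716300 over the pseudogene AT4G37705, had CG at 95.3% in Col and 3.37% in Ler and lies in the chromosome 4 block with the better match at a shift. Toward Ler, the longest runs were chr3:11652801-11656700 over the pseudogene AT3G29776 (0.985% in Col and 92.2% in Ler) and chr5:10130201-10133900 over the pseudogene AT5G28145 (1.02% and 93.0%). The third of these, chr4:1344001-1347300, lay over AOP3, a protein-coding gene for a 2-oxoglutarate-dependent dioxygenase of glucosinolate synthesis. Over its 16 windows CG was 0.667% in Col and 90.9% in Ler, CHG 0.392% and 53.5%, and CHH 0.373% and 8.42%.

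Protein-coding genes methylated in all contexts in a single strain were few. A window called in the same direction in all 3 contexts occurred in the bodies of 139 genes higher in Col (0.517%) and 76 higher in Ler (0.283%), and at least 3 such windows occurred in 38 and 19. The following were chosen after their values were seen, as the 5 toward Col and the 4 toward Ler with the most such windows. AT1G27570 had 24 and DMT2 8. AT1G63540, a hydroxyproline-rich glycoprotein gene, had 11 such windows, with CG at 94.9% in Col and 0.0627% in Ler. AT5G25040, of the major facilitator transporters, had 9, at 70.0% in Col and 3.49% in Ler. AT1G56100, of the invertase and pectin methylesterase inhibitors, had 8, at 51.4% in Col and 2.21% in Ler. Of the genes that came next with 7 each, WAK5, a cell wall-associated receptor kinase gene, stood at 76.6% in Col and 9.18% in Ler. Toward Ler, ABCC15 had 16. AT1G28180, a DEAD-box RNA helicase gene, had 7, at 10.7% in Col and 95.2% in Ler. AT4G05040, an ankyrin repeat gene, had 7, at 29.8% in Col and 93.8% in Ler. MYB87, a transcription factor gene in the chromosome 4 block named above, had 7, at 0.704% in Col and 94.9% in Ler.

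Upstream of genes, 112 genes had a window called higher in Col in all 3 contexts within 1 kb of the start, with at least 30 CG calls in both libraries, and 39 genes one called higher in Ler. These were few beside the 26828 genes with an upstream CG window tested. Of those, 9.8% had one called higher in Col in CG and 7.8% one called higher in Ler. The share among genes with upstream windows tested in all 3 contexts was not computed. Beside SIP1A, AGL57 and ABCG41, the largest CG differences toward Col were those of AT1G55280, AT5G03944 and AT5G06050. AT1G55280, a lipase and lipoxygenase family gene, had 98.7% of 75 CG calls methylated in Col and 0% of 48 in Ler, with CHG at 79.5% and 0% and CHH at 14.1% and 0%. AT5G03944 had 98.0% in Col and 0% in Ler, and AT5G06050, a methyltransferase family gene, 97.9% and 0%. The adjusted p of Fisher's exact test in CG was 1.36e-57 at AT5G06050 and 2.35e-31 at AT1G55280.

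Toward Ler, the set held, beside UMAMIT26 and AT2G14850, AT1G28180, AT2G02490, AT5G62110 and VIM1. The window 239 nt upstream of AT1G28180 had 0% of 192 CG calls methylated in Col and 96.8% of 190 in Ler. AT5G62110, a homeodomain-like gene, had CG at 0.952% in Col and 96.4% in Ler and CHH at 0.539% in Col and 14.4% in Ler. VIM1, a cofactor of CG methylation, had a window 85 nt upstream of its start with 2.04% of 98 CG calls methylated in Col and 97.4% of 38 in Ler, CHG at 0% and 47.9%, and CHH at 0.625% and 23.2%. Fisher's exact test gave adjusted p = 1.40e-27 in CG, 1.69e-11 in CHG and 2.70e-34 in CHH at VIM1. Another CG window upstream of VIM1 was called higher in Col.

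The genes that write and remove methylation themselves differed between the strains, mostly in CG within their bodies. Of 13 maintenance genes, 6 had a body window called higher in Col and 10 one called higher in Ler, against 27.8% and 26.2% of all genes. They had 6 to 35 CG windows tested each, beside a median of 10 over all genes. MET1 had 2 windows called higher in Col and 6 higher in Ler of 28, with a body CG level of 12.3% in Col and 20.7% in Ler. CMT2 had 6 of 35 called higher in Ler, at 23.0% in Col and 34.2% in Ler, and SUVH6, a histone methyltransferase gene, had 6 of 23, at 18.2% and 37.1%. KYP, whose product methylates histone H3, had 5 of 18 called higher in Col and 1 higher in Ler, at 49.8% in Col and 35.5% in Ler. VIM1 had 4 of 17 called higher in Ler and 1 higher in Col, at 6.42% in Col and 21.0% in Ler. VIM2, VIM4 and VIM5 had no called CG window.

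Of 17 genes of RNA-directed DNA methylation, 11 had a body window called higher in Col and 11 one called higher in Ler, against 27.8% and 26.2% of all genes. They had 11 to 42 windows tested each, beside the median of 10. NRPE1, the largest subunit of RNA polymerase V, had 8 of 42 windows called higher in Ler, at 33.6% in Col and 50.6% in Ler, while 2 windows upstream of it were called higher in Col. NRPD2, the shared second subunit, had 8 of 31 called higher in Ler and 1 higher in Col, at 28.8% in Col and 41.3% in Ler. AGO4, which binds the small RNAs, had 5 of 24 called higher in Col and 1 higher in Ler, at 28.1% in Col and 18.4% in Ler. DRD1, a chromatin remodeller, had 5 of 20 called higher in Col, at 45.6% in Col and 32.0% in Ler. SUVH9 had no called body window, but 2 upstream windows were called higher in Ler, of which chr4:7827201-7827500 had 0% of 156 CG calls methylated in Col and 94.1% of 68 in Ler, with CHH at 0.408% and 16.6%. Of the 4 DNA demethylase genes, DME, the glycosylase active in the central cell, had 10 of 43 windows called higher in Ler and none higher in Col, at 22.6% in Col and 38.1% in Ler. ROS1 had 3 windows called higher in Col and 2 higher in Ler of 33, and DML3 had 3 upstream windows called higher in Ler.

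Among 12 genes the study examined as candidates for imprinting that depends on the allele, 4 had a body window called higher in Col and 4 one called higher in Ler, near the 27.8% and 26.2% of all genes. They had 12 to 45 windows tested each. The study chose these genes with its own data, so they are not an independent set. ATRX, a chromatin remodeller, had 3 upstream windows called higher in Ler, of which chr1:2723201-2723500 had CG at 0% in Col and 93.9% in Ler, CHG at 0% and 53.8%, and CHH at 0.660% and 16.1%. AT4G00750, a methyltransferase family gene, had 5 of 17 windows called higher in Ler, at 7.76% in Col and 27.8% in Ler. AT2G34890, a CTP synthase gene, had 2 body and 2 upstream windows called higher in Col, and chr2:14721801-14722100 had CG at 94.1% in Col and 0% in Ler. HDG3, a homeodomain gene imprinted in endosperm, had no called CG window. Of the related genes, HDG9 had 2 body windows called higher in Col. FWA had 1 upstream window called higher in Col (71.0% of 93 CG calls in Col and 0% of 19 in Ler). The FWA body had no called window, at 18.7% in Col and 17.3% in Ler. The study describes the FWA promoter as highly methylated in all strains. How this 1 window, with 19 CG calls in Ler, relates to that promoter methylation was not tested.

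Of 9 loci known from earlier work to vary between strains, 4 had body windows called higher in Col and 5 had body windows called higher in Ler, against 27.8% and 26.2% of all genes, with 4 to 31 windows tested each. RPP4, an immune receptor gene, had 10 of 11 windows called higher in Col, at a body CG level of 94.4% in Col and 28.8% in Ler, and its window chr4:9490601-9490900 had CHG at 58.3% in Col and 0% in Ler. Other members of its cluster had fewer calls. SNC1 had 3 windows called higher in Col and 2 higher in Ler of 16, at 25.9% in Col and 22.5% in Ler, and RPP5 had 2 of 8 called higher in Ler. This family has near-identical copies, among which reads may be split. QQS, an orphan gene known for natural epialleles, had 2 of 5 windows called higher in Ler, and chr3:12349401-12349700 had CG at 1.03% in Col and 90.0% in Ler with CHG at 0% and 56.5%. ERECTA had 4 windows called higher in Ler and 1 higher in Col of 23. FLC, the flowering repressor, had no called CG window.

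Of 13 regulators of embryo development, 1 had a body window called higher in Col and 3 one called higher in Ler, against 27.8% and 26.2% of all genes. MP, an auxin response factor gene, had 4 windows called higher in Col and 2 higher in Ler of 18, at 32.4% in Col and 22.2% in Ler. LEC2, a regulator of embryo maturation, had a body CG level of 0.456% in Col and 0.0926% in Ler, but 2 upstream windows were called higher in Col, of which chr1:9900401-9900700 had 87.8% of 222 CG calls methylated in Col and 17.1% of 35 in Ler. Over all genes, 9.8% had an upstream CG window called higher in Col and 7.8% one called higher in Ler. LEC1, FUS3, ABI3, WUS, WOX2, STM, CUC1 and CUC2 had no called CG window in the body or the 1 kb upstream.

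Gene families differed in how often their windows were called. Helicase genes had a mean body CG level of 30.0% in Col and 31.8% in Ler, and 7.17% of their windows were called higher in Col and 9.35% higher in Ler (126 genes). Pentatricopeptide repeat genes, whose products act on organelle RNA, had 6.31% and 7.28% (307 genes). Ribosomal protein genes, with 4.88% body CG methylation in Col and 5.02% in Ler, had 2.45% and 2.29% (338 genes). Over all genes 4.69% of windows were called toward Col and 5.06% toward Ler. Some families leaned to Col. NLR immune receptor genes had 6.20% of windows called higher in Col and 4.14% higher in Ler (141 genes), F-box genes 5.23% and 3.46% (630 genes), and the cysteine and histidine-rich C1 genes 4.95% and 1.98% (139 genes). Families were matched by product names and got no test.

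The calls were then looked up in libraries that did not make them. The Col x Cvi and Ler x Cvi embryos, each from a Cvi father, were mapped by the authors with the same difference in genomes between Col and Ler mothers, so they share that step with the calls. At 18628 CG windows called higher in Col, mean CG methylation was 45.7% in Col x Cvi and 18.8% in Ler x Cvi. The difference of 26.8 points ranged from 26.3 to 27.3 over chromosomes, and 92.9% of the windows were higher in Col x Cvi. At 17915 windows called higher in Ler the levels were 19.8% in Col x Cvi and 43.3% in Ler x Cvi, a difference of -23.6 points (-24.7 to -22.5), with 90.8% of windows lower in Col x Cvi. Over all 445769 members found in both hybrids the difference was 0.501 points. CHG calls had differences of 28.0 points where called higher in Col (25.2 to 30.7) and -29.9 points where called higher in Ler (-34.1 to -25.1). For CHH calls the hybrids differed far less than the selfed embryos. At CHH windows called higher in Col the levels were 23.4% in Col and 7.06% in Ler, against 14.2% in Col x Cvi and 11.3% in Ler x Cvi, and 69.8% of windows were higher in Col x Cvi. At windows called higher in Ler they were 11.4% in Col and 31.1% in Ler, against 15.5% in Col x Cvi and 18.9% in Ler x Cvi.

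**Figure D5:**
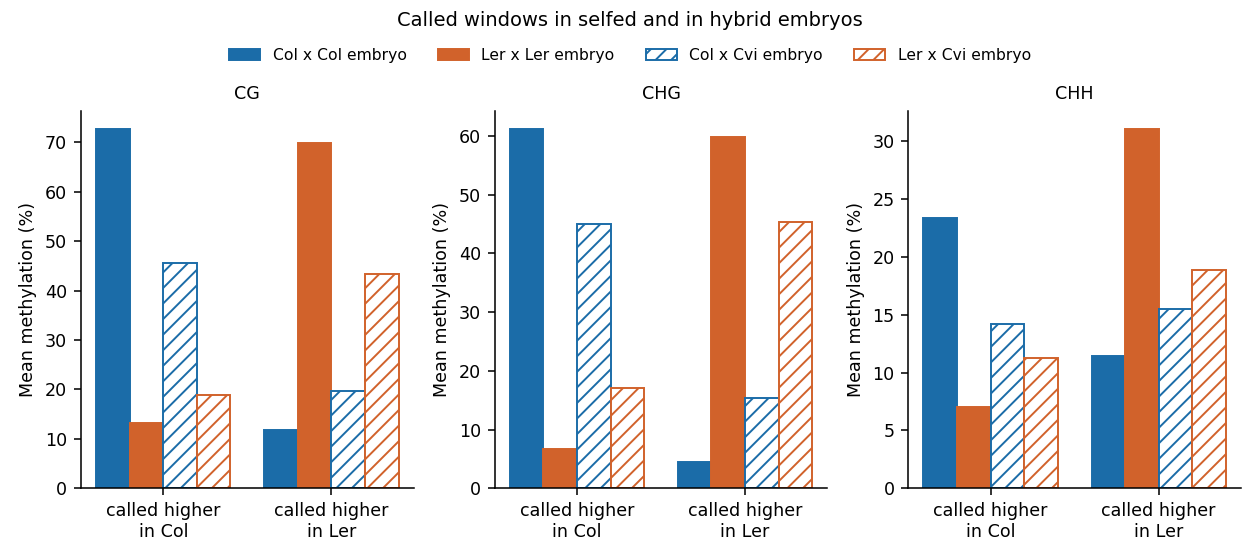
Mean methylation (percent) at windows called higher in Col and at windows called higher in Ler, for the Col and Ler selfed embryos that made the calls (filled bars) and the Col x Cvi and Ler x Cvi embryos that did not (hatched bars). In CG the hybrids had 45.7% and 18.8% at windows called higher in Col, and 19.8% and 43.3% at windows called higher in Ler.

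The selfed endosperms of Col and Ler, from the nourishing tissue of the seed, gave the same order in CG. Their files hold a percent for each window with no calls, so their depth there is unknown. At 7556 windows called higher in Col in the embryos, the mean was 45.0% in Col endosperm and 11.5% in Ler endosperm, and Col was above Ler in 68.5% of windows and below it in 11.9%. At 7305 windows called higher in Ler the means were 11.5% in Col endosperm and 50.2% in Ler endosperm, with 79.0% of windows lower in Col. The Cvi x Cvi embryo was mostly nearer to the less methylated strain, but its CG level was low in general. Over all members with a Cvi level the Cvi mean was 15.7%, beside 21.5% in Col and 20.7% in Ler. In gene bodies it was 7.21%, beside 14.4% in Col and 14.1% in Ler. The Cvi library was also shallow, with a median of 16 CG calls per window. At 6423 windows called higher in Col it had 23.1%, beside 73.1% in Col and 12.8% in Ler, and it was nearer to Col in 24.1% of windows. At 5522 windows called higher in Ler it had 19.0%, beside 12.2% in Col and 70.5% in Ler, and was nearer to Col in 80.5%. In pseudogenes it was less one-sided, nearer to Col in 45.8% of windows called higher in Col (260) and in 43.8% of those called higher in Ler (169). Over all members with a Cvi level, called or not, it was nearer to Col in 30.7%, and over those in pseudogenes in 46.6%, with ties counted as not nearer.

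Called CG windows had fewer CG and more CHG cytosines than others. Windows called higher in Col held 13.4 CG and 17.5 CHG cytosines on average and those called higher in Ler 12.7 and 19.5, against 15.5 CG and 15.5 CHG where nothing was called. CHH windows called higher in Ler were richer in A and T, at 30.7% G and C, and those called higher in Col had 33.3%, against 36.0% where nothing was called. All these averages pool the classes of sequence, over which called windows were spread unlike the windows tested, as given above. The part of location in these averages was not tested.

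Part of the difference between the strains lies outside the members. In CG, 43229 windows had at least 15 calls in Col and no entry for Ler, and 80.2% of them lay outside gene bodies. Their mean level in Col was 68.1%. The opposite case, at least 15 calls in Ler and no entry for Col, held 4915 windows at a mean of 34.2% in Ler. In CHH 36628 windows were found in Col alone at a mean of 11.8%, and 1039 in Ler alone at 6.50%. Sequence that Ler lacks, and sequence that the conversion of positions lost, cannot be told apart in these files.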

How the data were processed

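Whole-genome bisulfite sequencing measured cytosine methylation in dissected embryos. The authors dropped reads of poor quality (FastQC is named in their processing notes), removed redundant reads and mapped the rest with Bismark. No version of it is given in the sources read. The Col embryo was mapped to TAIR10. The Ler embryo was mapped to a Ler genome and its positions were converted to TAIR10, so sequence without a counterpart is lost and misplaced sequence appears as a difference. For each window of 300 nt the authors deposited the counts of unmethylated and methylated cytosine calls, with no normalization. The authors also deposited a percent per window, the mean over its cytosines without regard to reads, which was used for endosperm and as an alternative.

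The percent used here was methylated calls over all calls of a window. Tested windows were members with at least 3 cytosines of the context in the reference (10 for CHH), which stands in for the covered cytosines of the study's rule. Fisher's exact test was adjusted over all windows tested of a context on 5 chromosomes. With 1 library a strain, p-values and intervals cover counting error only. Genes came from RefSeq TAIR10.1, whose chromosome lengths hold every window, and no transposon annotation was used. Gene bodies were windows overlapping a protein-coding gene. Centromere positions were the midpoint of each chromosome's longest inner stretch of unknown bases.

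Members and gene lists were chosen with earlier results of these data known. Named genes were the 6 in each direction with most called CG windows in the body, and the 6 with the largest CG difference at an upstream window called in all 3 contexts, with at least 30 CG calls in both libraries. The 3 longest runs in each direction, the genes of 7 lists and those at the 3 widest gaps between bins of 200 kb were also named. One listed gene is not reported here by name. Alternatives were at least 30 calls (100 for CHH), a difference of at least 50 points (20 for CHH), no cytosine minimum, calls thinned to equal depth, the deposited window means, no windows of extreme call ratio, assignment by midpoint and another centromere distance or position. The calling was tested on simulated data. Python 3.11.15, numpy 2.4.6, pandas 2.3.3, scipy 1.17.1 and matplotlib 3.10.9 were used.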

Additional observations from a re-analysis of the deposited data

How the results depend on the processing

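No paired analysis was possible because each strain had 1 library. Of 106 alternatives computed for 20 results, 87 left the result within its error or count limit. That limit was wide for counts. With at least 30 calls, 14035 CG windows were called higher in Col and 13191 higher in Ler, against 19352 and 18420. Both lay within the limit. The sign changed only for the CG difference in gene bodies, given below. Requiring 50 points (20 for CHH) gave 11551 CG windows called higher in Col and 10663 higher in Ler, 2049 and 1417 in CHG, and 1827 and 941 in CHH. It moved the hybrid difference to 33.68 points at windows called higher in Col and -29.64 at those called higher in Ler. The share of CG calls higher in Ler also called in CHG moved to 10.25%. The shares of CG calls also called in CHH moved to 3.388% for Col and 0.7474% for Ler. The hybrid difference at windows called higher in Col was 27.65 with at least 30 calls, 27.57 with thinned calls and 27.53 with the deposited window means. The share of CG calls higher in Col also called in CHG was 12.62% with thinned calls. Without windows of extreme call ratio it was 12.21% for Col and 8.678% for Ler, and the share also called in CHH was 8.012% for Col. The CHH difference in gene bodies was 0.1498 points with windows assigned by midpoint. For none of these shifts was the cause tested. The CG difference in gene bodies, -0.164 points, was 0.00315 with at least 30 calls, so its sign is not settled. With centromeres placed at the gene-poorest 1 Mb, an alternative chosen after seeing the data, the CG difference within 2 Mb was 3.315 points, against 3.147. The strains have no replicate error, neighbouring windows share calls, and differences of sequence and of mapping cannot be told apart from differences of methylation.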

Other observations

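In CHG, bins of 200 kb also differed where CG calls leaned to Ler. At chr3:11600001-11800000, 1.39% of CHG windows were called higher in Col and 9.27% higher in Ler, while CHH leaned the other way, with 2.75% called higher in Col and 1.70% higher in Ler. At chr5:12600001-12800000, 0.725% of CHG windows were called higher in Col and 7.73% higher in Ler, and in CHH 8.40% and 1.89%. In 1 of the 2 blocks of 100 kb in that bin too few windows were covered to compare the profiles. The direction of the CHH calls thus differed from that of the CG and CHG calls in both bins. A lean of CHH calls to Col was usual, however. It held in 510 of 594 bins, and over all windows tested 1.65% were called higher in Col and 0.566% higher in Ler.

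Upstream windows were looked up in the hybrids and in Cvi. The window upstream of AT5G06050, methylated in Col, had CG at 97.2% in Col x Cvi and at 36.0% in Ler x Cvi, with 95.8% in the Cvi x Cvi embryo. The window shared by SIP1A and AGL57 had 45.3% in Col x Cvi and 0% in both Ler x Cvi and Cvi x Cvi. The window upstream of AT1G28180, methylated in Ler, had 50.4% in Col x Cvi, 90.3% in Ler x Cvi and 100% for Cvi x Cvi. The window upstream of AT2G14850 had 0% in Col x Cvi, 44.1% in Ler x Cvi and 2.94% for Cvi x Cvi.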
